A study of Mus musculus with 11 samples.

Results

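A group of 9 liver genes carries sulfur from methionine to cysteine and on to taurine, and its transcripts were followed in db/db mice given an antibody against the glucagon receptor (GCGR). The 9 genes are Mat1a, Gnmt, Ahcy, Bhmt, Bhmt2, Cbs, Cth, Cdo1 and Csad. They were taken by name, and each gene probe of the array designed on one of their RefSeq transcripts was used, which gave 13 probes of 9 genes among the 20144 genes with a matched probe. The 2 groups were livers of db/db mice treated with 3c7.v44, a monoclonal antibody against GCGR, at 5 mg/kg (6 arrays, replicates 1 to 6), and livers of db/db mice given PBS, the buffer without antibody (5 arrays, replicates 1, 3, 4, 5 and 6). All mice of both groups carried the db/db genotype, which leaves them without a working leptin receptor and makes them obese and diabetic, and no lean or wild-type liver was analysed here. The age, sex and length of treatment are not given in the sources used here. Each array set liver cRNA in the dye Cy5 against a pooled mouse reference RNA in Cy3, with no dye swap, so that a value is log2 of liver over reference. Whether every sample is a mouse of its own is not stated, and p-values therefore reflect the spread among these samples, which may be technical.

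Methionine is activated to S-adenosylmethionine, the methyl donor of the cell, and after the methyl group has been passed on the remainder is split to homocysteine. Homocysteine has a pair of fates. It is methylated back to methionine, in liver with betaine as one donor, or it is joined to serine and turned into cysteine, the route called transsulfuration. Cysteine is built into protein and glutathione or oxidized to cysteine sulfinate, from which liver makes taurine, the amine that is joined to bile acids. The liver holds most of these enzymes at high levels and is the main site of the pathway. Glucagon is known to raise the breakdown of amino acids in liver.

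The arrays of the groups were alike in quality, and 1 of them stood apart from its label. Between 66.2% and 77.1% of gene spots per array were well above background in Cy5, and the median Cy5 signal was 85 to 110 scanner units. Over the 15953 genes tested, the array labelled anti-GCGR replicate 5 correlated at 0.982 with the other antibody arrays and at 0.991 with the PBS arrays. For the other 5 antibody arrays these mean correlations were 0.989 to 0.991 with the antibody arrays and 0.978 to 0.984 with the PBS arrays. The main results are therefore given with and without that array. The 12 hepatocyte markers, Alb among them, were all measured, with a mean log2 ratio to the reference of 6.03 to 6.25 on the antibody arrays and 6.07 to 6.28 on the PBS arrays. Of these markers 0 of 12 passed the test, where 14.6% of all genes did. Without anti-GCGR replicate 5 they were 1 up and 2 down, where 24.2% of all genes passed. The probes of all 9 enzymes were well above background in Cy5 on 11 of 11 arrays, and none was saturated. Gcgr itself, the receptor bound by the antibody, was at 6.72 ± 0.15 (SD, n = 6) with the antibody and 6.54 ± 0.06 (SD, n = 5) with PBS and did not pass (adjusted p = 0.108 by limma).

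With the antibody, transcripts of Ahcy and Cth fell and those of Csad rose, and the other 6 genes did not pass the test. Ahcy encodes the enzyme that splits S-adenosylhomocysteine to homocysteine, Cth the enzyme that releases cysteine at the end of transsulfuration, and Csad the enzyme that decarboxylates cysteine sulfinate on the way to taurine. The changes were 1.42-fold down for Ahcy, 2.41-fold down for Cth and 2.17-fold up for Csad. In all, 2 of 9 genes fell and 1 rose. The threshold was 0.05 for the p of limma, two-sided, after Benjamini-Hochberg adjustment over all 15953 genes, which 14.6% of all genes passed, 8.98% upwards and 5.67% downwards. Rises thus made up 61.3% of all calls, a share that depended on the scaling and was 45.2% with the scanner software's ratio, 21.3% with median centring and 50.5% with the Cy5 channel alone. The median log2 fold change of the 9 genes was -0.05, against 0.01 over all genes tested. By probe, 4 of the 13 fell and 1 rose, with 13% of all kept probes passing. The groups overlapped for each of the 9 genes and 13 probes, while 6.65% of all genes and 5.99% of all probes showed no overlap. Without anti-GCGR replicate 5, the genes that passed were 1 up and 3 down, Mat1a being added to the same 3, where 24.2% of all genes passed. With PBS replicate 5 left out as well, the same 4 genes passed, where 23% of all genes did, and Ahcy, Cth and Csad showed no overlap, as did 20.9% of all genes.

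**Figure D1:**
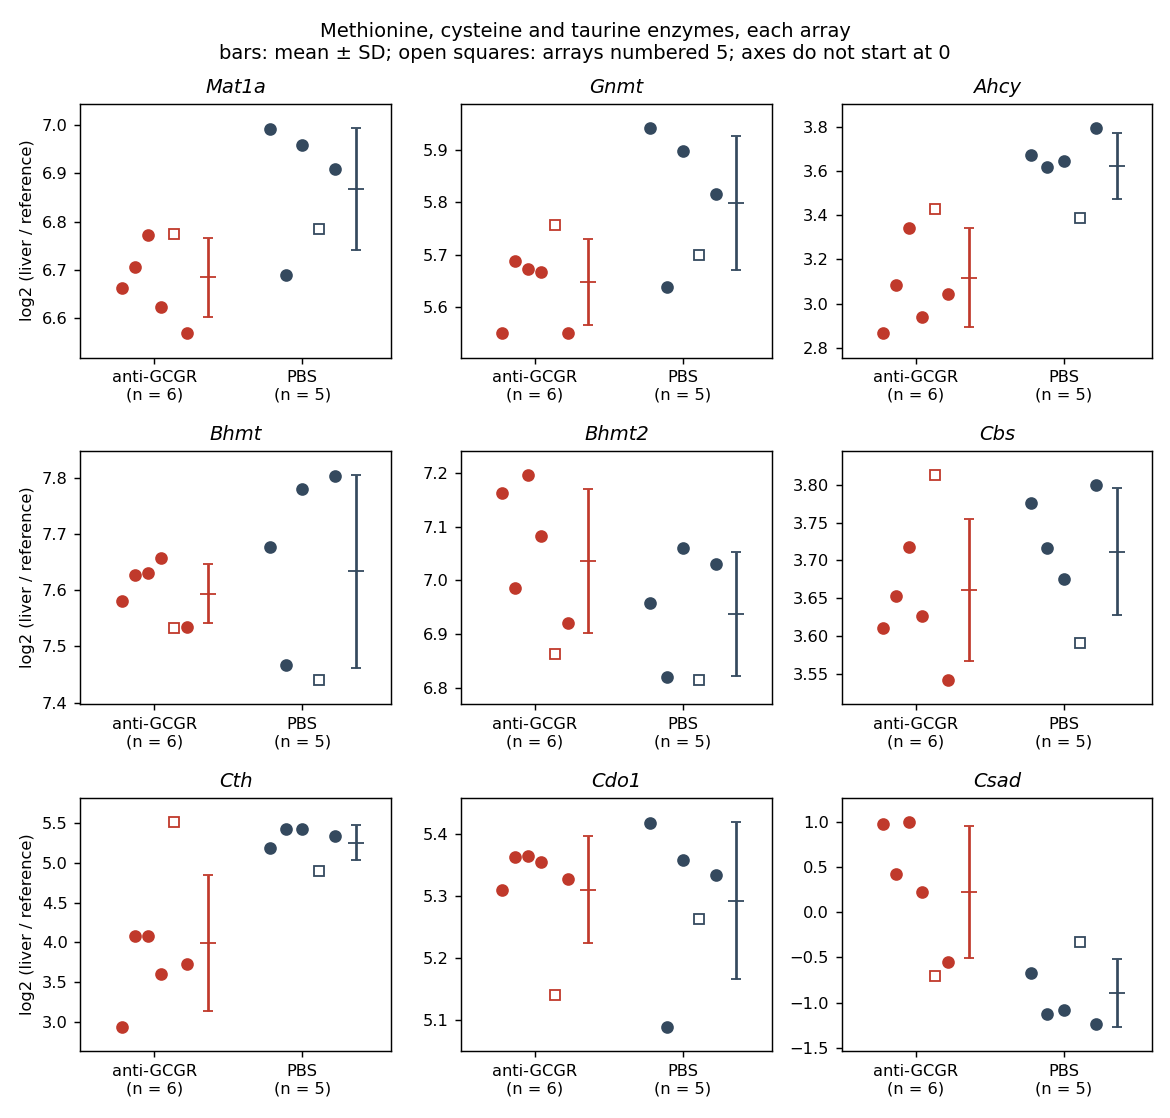
Each panel shows 1 of the 9 genes, with the log2 ratio of liver over reference on the vertical axis and a point for each array, 6 anti-GCGR at the left and 5 PBS at the right, and bars for the mean ± SD. The array labelled anti-GCGR replicate 5 (open square at the left) lies highest of its group for Cth, at 5.52, and lowest for Csad, at -0.71.

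Promoters of Csad and Ahcy are shown to place one short motif. Glucagon acts in liver through cAMP, and the transcription factor CREB binds the cAMP response element. Promoters of 6 of the 9 genes were searched, taken from the RefSeq table of build GRCm38.p6. They gave 7 windows in all, since Csad has more than 1 start site. Each window was of 300 bases and ended 50 bases past the annotated start. Mat1a, Cth and Cdo1 were not searched, and the motif counts below do not cover them. Whether that table held their promoters is not reported here. The sequences run 5′ to 3′ on the strand of the gene, all minus, and capitals mark the half-site TGACG of the cAMP response element.
Csad, first start, chr15:102205003-102205302: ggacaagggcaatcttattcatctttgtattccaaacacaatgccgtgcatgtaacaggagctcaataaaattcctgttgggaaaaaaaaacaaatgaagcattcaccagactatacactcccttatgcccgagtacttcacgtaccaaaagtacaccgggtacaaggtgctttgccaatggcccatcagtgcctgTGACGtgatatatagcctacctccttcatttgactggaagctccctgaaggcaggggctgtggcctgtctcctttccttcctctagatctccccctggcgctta
Csad, start within the gene, chr15:102188994-102189293: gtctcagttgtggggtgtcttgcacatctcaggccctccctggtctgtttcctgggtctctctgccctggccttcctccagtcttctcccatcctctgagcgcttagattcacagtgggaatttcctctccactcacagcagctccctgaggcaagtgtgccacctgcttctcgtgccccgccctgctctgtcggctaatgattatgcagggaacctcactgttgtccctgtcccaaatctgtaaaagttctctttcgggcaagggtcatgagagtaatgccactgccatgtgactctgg
Ahcy, chr2:155074448-155074747: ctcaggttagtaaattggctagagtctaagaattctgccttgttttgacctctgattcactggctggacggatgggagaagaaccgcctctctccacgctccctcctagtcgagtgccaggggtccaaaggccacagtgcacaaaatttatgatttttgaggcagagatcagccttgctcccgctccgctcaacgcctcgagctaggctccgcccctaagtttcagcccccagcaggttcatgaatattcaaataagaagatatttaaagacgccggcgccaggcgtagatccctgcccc
The first Csad window held the half-site once, at position -54 counted from the start site, and the second Csad window and the Ahcy window did not hold it. Searched on both strands, TGACG occurred in 20.8% of the 32851 promoters of the same length in the RefSeq table and in 1 of the 6 genes searched. The full element TGACGTCA, which contains that half-site, was in 1.79% of all promoters and in 0 of the 6. The amino acid response element TGATGNAA, bound by ATF4, was in 3.97% of all promoters and in 0 of the 6. The CCAAT box was in 37.4% of all promoters and in 5 of the 6, Gnmt, Ahcy, Bhmt, Cbs and Csad. The share over all promoters counts windows, while the 6 are genes, with Csad counted when either of its windows matched. A match describes letters only.

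Mat1a, Gnmt and Ahcy make up the arm that turns methionine into homocysteine. Mat1a encodes the methionine adenosyltransferase of the adult liver, which makes S-adenosylmethionine. Its log2 ratio was 6.57 at the lowest, 6.68 at the median and 6.77 at the highest of the 6 antibody arrays, against 6.99, 6.69, 6.96, 6.78 and 6.91 on PBS replicates 1, 3, 4, 5 and 6. Antibody arrays were the lower ones, and 3 of 6 lay below every PBS array. PBS replicate 3 lay inside the antibody range and PBS replicate 5 just above it. The log2 fold change was -0.18 ± 0.06 (SE) and did not pass (limma adjusted p = 0.0757). It was -0.20 without anti-GCGR replicate 5 (limma adjusted p = 0.0462) and -0.23 without PBS replicate 3 (limma adjusted p = 0.0436), where it passed. In the other 9 of the 11 fits that left out 1 array Mat1a did not pass. With the scanner software's ratio it was at -0.06 (limma adjusted p = 0.4225), and with median centring at -0.24 (0.0345).

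Gnmt encodes glycine N-methyltransferase, an abundant liver enzyme that uses up spare S-adenosylmethionine. It ranged from 5.55 to 5.76 with a median of 5.67 on the antibody arrays, against 5.94, 5.64, 5.90, 5.70 and 5.82 on PBS replicates 1, 3, 4, 5 and 6. The PBS arrays numbered 3 and 5 were again the low ones of their group. The log2 fold change of Gnmt was -0.15 ± 0.07 (SE, limma adjusted p = 0.136), and -0.17 without anti-GCGR replicate 5 (limma adjusted p = 0.0774).

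Ahcy had log2 ratios of 2.87, 3.09, 3.34, 2.94, 3.43 and 3.04 on antibody replicates 1 to 6, against 3.67, 3.62, 3.65, 3.39 and 3.79 on PBS replicates 1, 3, 4, 5 and 6. Thus 5 of 6 antibody arrays lay below every PBS array, and anti-GCGR replicate 5 lay just above PBS replicate 5. The mean was 3.12 ± 0.22 (SD, n = 6) with the antibody and 3.62 ± 0.15 (SD, n = 5) with PBS, and the log2 fold change came to -0.51 ± 0.10 (SE, adjusted p = 0.0106 by limma). The other Ahcy probe fell as well, by 0.42 on the log2 scale. Without anti-GCGR replicate 5 the log2 fold change was -0.57 and the groups did not overlap, as for 16.9% of all genes in that setting. The call held in each of the 11 fits that left out 1 array (limma adjusted p = 0.00102 to 0.0318).

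Within the array slides, which hold arrays of both groups, Ahcy was lower with the antibody by unequal amounts. The difference was -0.76 on slide 1 (2 arrays a group), -0.13 on slide 2 (2 antibody arrays, 1 PBS array) and -0.51 on slide 3 (2 arrays a group). Slide 2 holds the arrays numbered 5 of both groups.

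**Figure D2:**
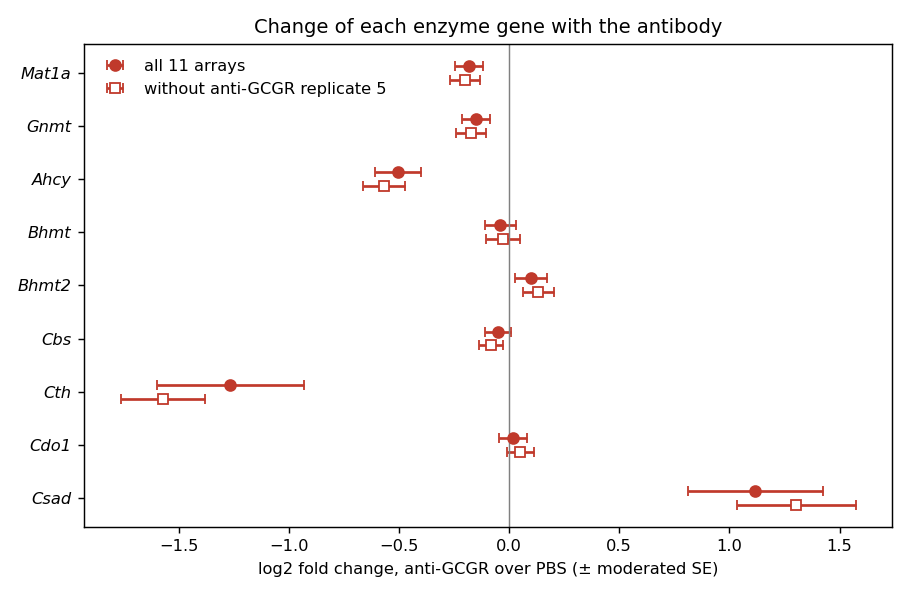
Log2 fold change of each of the 9 genes, antibody over PBS, on the horizontal axis with its moderated SE, from all 11 arrays (filled circles) and without anti-GCGR replicate 5 (open squares). Ahcy and Cth lie left of 0 and Csad right of 0, and leaving the array out moved Cth from -1.27 to -1.57.

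Bhmt and Bhmt2, neighbouring genes on chromosome 13, encode enzymes that pass a methyl group back to homocysteine. Bhmt uses betaine, and Bhmt2 uses S-methylmethionine. Bhmt had a log2 ratio of 7.53 to 7.66 (median 7.60) on the antibody arrays, against 7.68, 7.47, 7.78, 7.44 and 7.80 on PBS replicates 1, 3, 4, 5 and 6. All antibody arrays lay inside the PBS range. Its log2 fold change was -0.04 ± 0.07 (SE, limma adjusted p = 0.760, 95% interval -0.19 to 0.12), and its 2 other probes gave -0.07 and 0.03. For Bhmt2 the antibody arrays ranged from 6.86 to 7.20 (median 7.03), against 6.96, 6.82, 7.06, 6.81 and 7.03 on the PBS arrays in the same order. The groups overlapped, with a difference of 0.10 ± 0.07 in log2 (SE, limma adjusted p = 0.410, 95% interval -0.06 to 0.26). The genes lie 18.3 kb apart and are relatives. Whether a probe of one also binds transcripts of the other was not tested.

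Cbs and Cth form the transsulfuration arm, and they differed in what they showed. Cbs encodes cystathionine beta-synthase, which joins homocysteine to serine. Its log2 ratio was 3.54 to 3.81 (median 3.64) on the antibody arrays, against 3.78, 3.72, 3.68, 3.59 and 3.80 on PBS replicates 1, 3, 4, 5 and 6. The ranges lay over each other, and anti-GCGR replicate 5 was the highest of all 11 arrays. The log2 fold change was -0.05 ± 0.06 (SE, limma adjusted p = 0.613, 95% interval -0.18 to 0.08).

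Cth encodes cystathionine gamma-lyase. It was at 2.94, 4.08, 4.08, 3.60, 5.52 and 3.72 on antibody replicates 1 to 6, against 5.18, 5.43, 5.42, 4.90 and 5.34 on PBS replicates 1, 3, 4, 5 and 6. Of the antibody arrays, 5 of 6 lay below every PBS array, and anti-GCGR replicate 5 lay above every PBS array. Cth averaged 3.99 ± 0.86 (SD, n = 6) with the antibody and 5.26 ± 0.22 (SD, n = 5) with PBS, and its log2 fold change came to -1.27 ± 0.33 (SE, adjusted p = 0.0257 by limma). Its other probe fell by 1.25 on the log2 scale. Without anti-GCGR replicate 5 the log2 fold change was -1.57 ± 0.19 (SE, limma adjusted p = 0.000159), a mean of 3.69 ± 0.47 (SD, n = 5) with the antibody. The groups then did not overlap, as for 16.9% of all genes in that setting. The call was lost without anti-GCGR replicate 4 (limma adjusted p = 0.0578) or 6 (0.0514), and without PBS replicate 1 (0.0550), 3 (0.0597), 4 (0.0580) or 6 (0.0529), with log2 fold changes of -1.19 to -1.28. Within slides, the Cth difference was -2.03 on slide 1, -0.10 on slide 2 and -1.48 on slide 3.

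**Figure D3:**
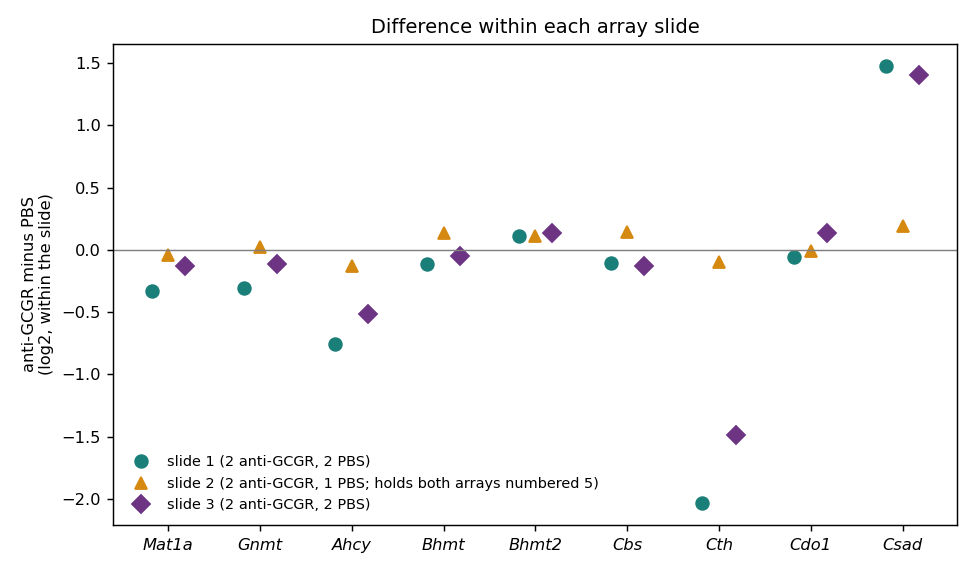
Difference between the mean antibody and the mean PBS array within each of the 3 slides, on the log2 scale, for the 9 genes. For Ahcy, Cth and Csad slide 2, which holds 1 PBS array and both arrays numbered 5, lies nearest to 0, at -0.13, -0.10 and 0.19.

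Cdo1 and Csad act on cysteine in turn. Cdo1 encodes cysteine dioxygenase, which oxidizes cysteine to cysteine sulfinate. It ranged from 5.14 to 5.36 (median 5.34) on the antibody arrays, against 5.42, 5.09, 5.36, 5.26 and 5.33 on PBS replicates 1, 3, 4, 5 and 6. All 6 antibody arrays lay within the PBS range, and anti-GCGR replicate 5 was the low one. The log2 fold change of Cdo1 was 0.02 ± 0.07 (SE, limma adjusted p = 0.893, 95% interval -0.12 to 0.16).

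Csad had log2 ratios of 0.98, 0.42, 0.997, 0.22, -0.71 and -0.55 on antibody replicates 1 to 6, against -0.67, -1.13, -1.08, -0.33 and -1.23 on PBS replicates 1, 3, 4, 5 and 6. Antibody replicates 1 to 4 lay above every PBS array, while replicates 5 and 6 lay among them. The mean was 0.23 ± 0.73 (SD, n = 6) with the antibody and -0.89 ± 0.38 (SD, n = 5) with PBS, and its log2 fold change came to 1.12 ± 0.31 (SE, adjusted p = 0.0296 by limma). Without anti-GCGR replicate 5 it was 1.30 ± 0.27 (SE, limma adjusted p = 0.00411). Leaving out single arrays ended the call of Csad 8 times in 11. These were the fits without anti-GCGR replicate 1 (limma adjusted p = 0.0570), 2 (0.0561), 3 (0.0596) or 4 (0.0573) and without PBS replicate 1 (0.0543), 3 (0.0702), 4 (0.0671) or 6 (0.0676). The log2 fold change stayed between 0.96 and 1.17 in these fits. Within slides it was 1.48, 0.19 and 1.40 on slides 1, 2 and 3.

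The dyes were also looked at one by one, since a ratio moves with the reference too. Before the ratio was taken, the Cy5 signal of Cth differed by -1.73 between antibody and PBS arrays on the log2 scale and the Cy3 signal, from the reference RNA, by -0.33. For Ahcy the differences were -0.61 in Cy5 and 0.07 in Cy3, and for Csad 1.16 in Cy5 and 0.14 in Cy3. In these 3 genes the difference was thus mainly in the liver dye. For Mat1a, Gnmt and Cbs both dyes differed in the same direction, with -0.68, -0.63 and -0.85 in Cy5 and -0.42, -0.42 and -0.70 in Cy3, while the median over all genes tested was 0.01 in Cy5 and 0.11 in Cy3. With the Cy5 channel alone these genes passed, at log2 fold changes of -0.62 for Mat1a (limma adjusted p = 0.00391), -0.56 for Gnmt (0.0164) and -0.86 for Cbs (0.0468). The part of the Cy3 difference in those values was not tested. With the scanner software's ratio Gnmt passed at -0.35 (limma adjusted p = 0.0206), while Mat1a did not pass, at -0.06 (0.4225). Cbs was at 0.02 with that ratio, and the call of Csad was lost at 1.11 (limma adjusted p = 0.0730).

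**Figure D4:**
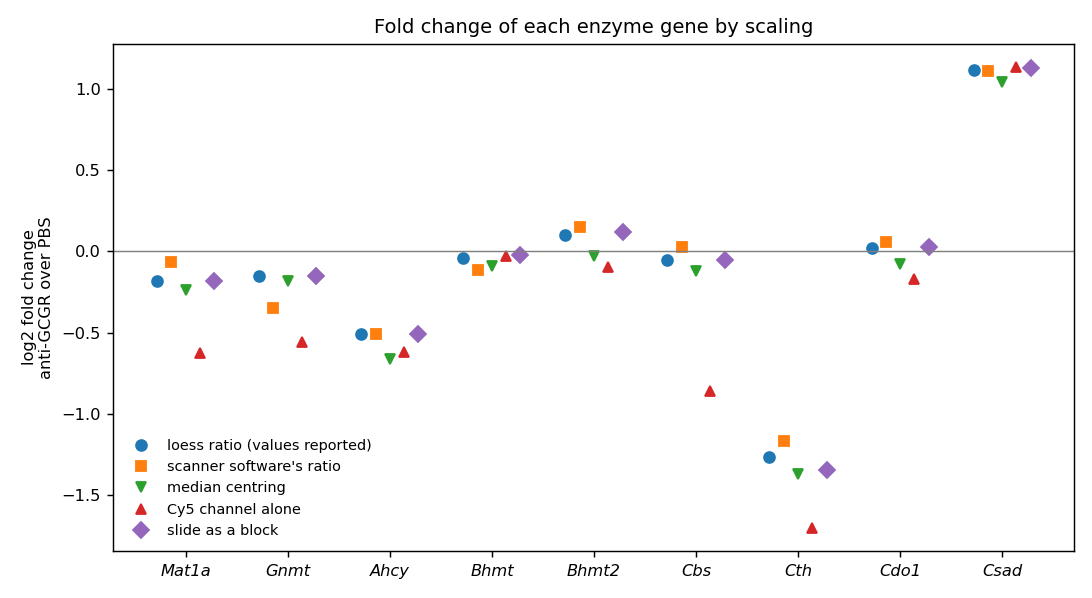
Log2 fold change of the 9 genes, antibody over PBS, under the values reported here and 4 other ways of scaling or fitting. Ahcy, Cth and Csad keep their sign in all of them, and Mat1a, Gnmt and Cbs lie lowest with the Cy5 channel alone.

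The steps were also set against each other within each array, as the log2 ratio of one gene over another, for 8 pairs chosen after the data had been seen. These are differences in change with no test, and no gene's level is read from them. Cth over Cbs, the successive steps of transsulfuration, was lower with the antibody by 1.22 (SD 0.78 over 6 antibody arrays, 0.19 over 5 PBS arrays). Csad over Cdo1, the successive steps to taurine, was higher by 1.1 (SD 0.68 and 0.38 in the same order). The groups overlapped in both pairs. The difference was -0.35 for Ahcy over Gnmt and 0.46 for Cbs over Ahcy, and in these 2 pairs the groups did not overlap. Among single genes 6.65% showed no overlap, and the share among gene pairs was not computed. Neither of the 2 pair differences held with the Cy5 channel alone, where Ahcy over Gnmt shrank to -0.064 and Cbs over Ahcy turned its sign, to -0.24. Ahcy over Gnmt was at -0.16 with the scanner software's ratio. The other pairs overlapped, at 0.03 for Gnmt over Mat1a, 0.47 for Bhmt over Ahcy, 0.14 for Bhmt2 over Bhmt and 1.28 for Cdo1 over Cth.

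Lists of genes around the pathway are given by their counts, to be read against the 14.6% of all genes that passed (8.98% upwards, 5.67% downwards), or 24.2% without anti-GCGR replicate 5. Among 16 genes of the methionine cycle and of methyl group use, 3 rose, 2 fell and 11 did not pass, with a median log2 fold change of 0.03. Nnmt, which methylates nicotinamide with S-adenosylmethionine, was at 2.67, 4.07, 3.98, 3.16, 4.85 and 3.39 on antibody replicates 1 to 6, against 4.75, 4.70, 4.65, 4.57 and 5.03 on PBS replicates 1, 3, 4, 5 and 6. Its log2 fold change was -1.06 (SE 0.30, adjusted p = 0.0341 by limma), with anti-GCGR replicate 5 again among the PBS arrays. Hnmt, the histamine methyltransferase, rose by 0.45 ± 0.10 (SE), and its other probe was at 0.20. Mmut, the methylmalonyl-CoA mutase, fell by 0.21 (SE 0.06). Mtr, the vitamin B12 enzyme that methylates homocysteine, rose by 0.24 ± 0.05 (SE) and is named here after its values were seen. Its groups did not overlap. Leaving out arrays one by one ended the call 7 times in 11 for Nnmt and 9 for Mmut (adjusted p up to 0.0744 and 0.0906 by limma), and never for Hnmt and Mtr. Hnmt did not pass with the scanner software's ratio (0.36) or with the Cy5 channel alone (0.21), and with median centring Mtr did not (0.14). Leaving out anti-GCGR replicate 5, 4 of the 16 genes rose and 3 fell.

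Among 10 genes of choline and betaine handling, 2 rose, 2 fell and 6 did not pass. Chdh, which starts the oxidation of choline to betaine, rose by 0.36 ± 0.09 (SE, adjusted p = 0.0238 by limma), and its 2 other probes were at 0.34 and 0.22. The choline carrier Slc44a1 rose by 0.43 ± 0.13 (SE), with its other probes at 0.37 and -0.04. Sardh, which takes the methyl group off sarcosine, the product of Gnmt, fell by 0.42 (SE 0.12), and the betaine carrier Slc6a12 fell by 0.34 (SE 0.08) with no overlap between the groups. Leaving out single arrays ended 5 of 11 calls for Chdh, 8 for Slc44a1, 7 for Sardh and none for Slc6a12. With the scanner software's ratio Chdh (0.21), Slc44a1 (0.38) and Sardh (-0.37) did not pass. Chdh and Slc44a1 also did not pass with median centring (0.25 and 0.32) or with the Cy5 channel alone (0.26 and 0.36), where Sardh did. In the fit that leaves out anti-GCGR replicate 5, 3 of the 10 genes rose and 3 fell.

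In the list of taurine and sulfur oxidation, 1 of 16 genes rose, 3 fell and 12 did not pass, with a median log2 fold change of -0.13. Got1, the cytosolic aspartate aminotransferase that also accepts cysteine sulfinate, was at 0.01, 0.35, 0.89, -0.06, 3.21 and 0.15 on antibody replicates 1 to 6, against 2.39, 3.43, 2.60, 2.07 and 3.35 on PBS replicates 1, 3, 4, 5 and 6. It was low on 5 of 6 antibody arrays and within the PBS range on replicate 5, and its log2 fold change was -2.01 ± 0.51 (SE, adjusted p = 0.0224 by limma), and -2.50 without that array. Papss2, which makes the activated form of sulfate, fell by 0.69 (SE 0.21, limma adjusted p = 0.0467). The sulfite oxidase Suox, named after its values were seen, fell by 0.56 (SE 0.16, limma adjusted p = 0.0365). Slc16a6, a carrier of the monocarboxylate family, rose by 0.93 ± 0.20 (SE, limma adjusted p = 0.0121), and its other probe was at 0.56. Without single arrays, 3 of 11 calls ended for Got1, 9 for Papss2, 9 for Suox and none for Slc16a6. Papss2 did not pass with the scanner software's ratio (adjusted p = 0.0614 by limma) or with the Cy5 channel alone (0.0838). Without anti-GCGR replicate 5, 3 of the 16 genes rose and 7 fell, where 24.2% of all genes passed.

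**Figure D5:**
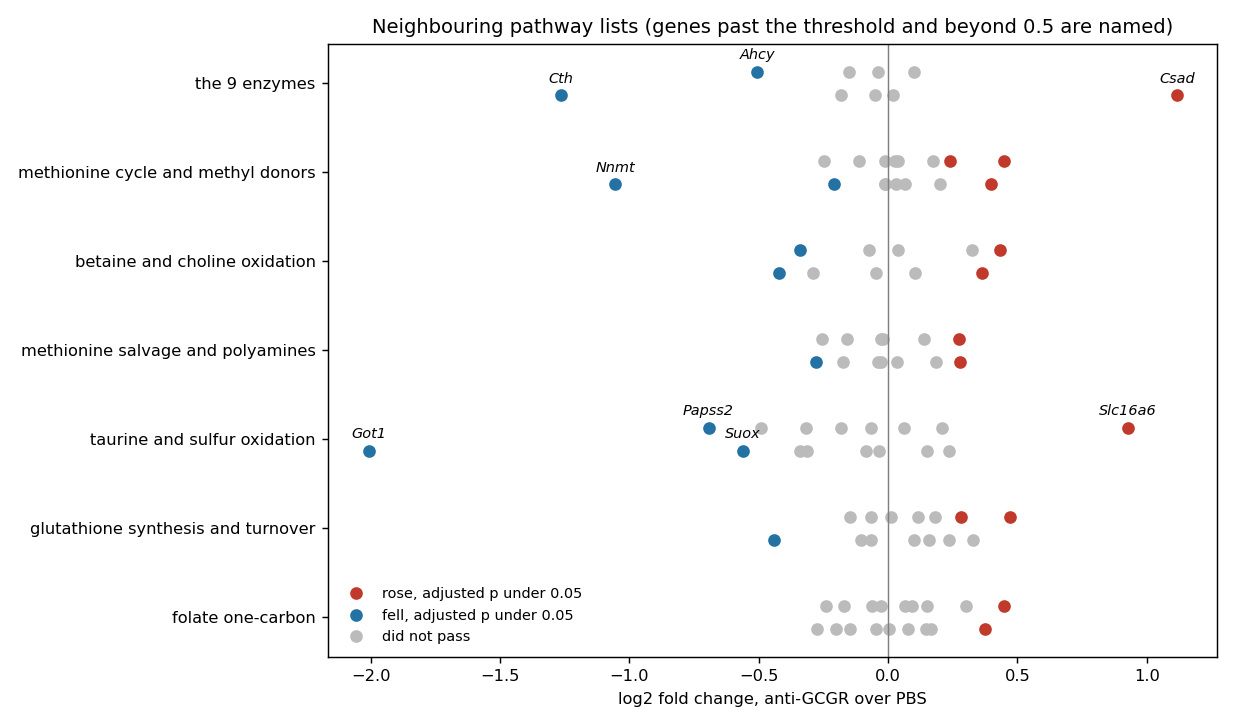
Log2 fold change, antibody over PBS, of the 9 enzymes and of the members of 6 neighbouring lists, with genes that rose in red, genes that fell in blue and the others in grey. The largest fall is that of Got1, at -2.01, and the largest rise that of Csad, at 1.12.

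Of 14 genes of glutathione synthesis and turnover, 2 rose, 1 fell and 11 did not pass. Ggct, which cleaves gamma-glutamyl dipeptides, rose by 0.47 ± 0.09 (SE, adjusted p = 0.00853 by limma), its groups not overlapping, and Gss, the glutathione synthetase, rose by 0.28 ± 0.08 (SE). The peptidase Lap3 fell by 0.44 (SE 0.14). Among 13 genes of methionine salvage and polyamines 2 rose, 1 fell and 10 did not pass. They were Mri1, of methionine salvage, up by 0.28 with no overlap, the spermine oxidase Smox, up by 0.27 (0.13 on its other probe), and the antizyme Oaz1, which marks ornithine decarboxylase for breakdown, down (-0.28). Of 18 genes of the folate cycle 2 rose and 16 did not pass. These were Mthfd2l, a mitochondrial folate enzyme (0.38 ± 0.08, SE), and the folate receptor Folr2 (0.45 ± 0.10, SE), both with no overlap, and Folr2 was at -0.12 with the scanner software's ratio. Without single arrays, 8 of 11 calls ended for Gss, 10 for Lap3, 2 for Smox and 5 for Oaz1, and none for Ggct, Mri1, Mthfd2l or Folr2. With median centring Mri1, Smox, Gss and Mthfd2l did not pass, and with the Cy5 channel alone Oaz1 was at -0.052 and Gss did not pass. Lap3 did not pass with the scanner software's ratio (adjusted p = 0.0690 by limma), with the Cy5 channel alone (0.0991) or when fitted on the ratios of the authors' deposited table, and Gss and Mthfd2l did not with the scanner software's ratio. When anti-GCGR replicate 5 was left out, 3 glutathione genes rose and 1 fell, 2 salvage and polyamine genes rose and 2 fell, and 4 folate genes rose and 3 fell.

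Some markers of other cells passed in the same comparison, in which 8.98% of all genes rose and 5.67% fell. In whole liver, fewer cells of a type and less RNA per cell cannot be told apart. Of the stellate cell and fibroblast markers 5 of 12 rose, with a mean log2 ratio of -0.58 to 0.01 on the antibody arrays and -0.88 to -0.60 on the PBS arrays. Endothelial markers rose in 4 of 12 (2.52 to 2.87 with the antibody, 2.39 to 2.56 with PBS) and Kupffer cell and macrophage markers in 3 of 11 (2.35 to 2.84 with the antibody, 2.29 to 2.69 with PBS). Markers of proliferating cells rose in 2 of 6 (-3.96 to -3.38 with the antibody, -4.12 to -3.83 with PBS), with a median log2 fold change of 0.33. Of the cholangiocyte markers 0 of 8 passed, and 1 of 9 blood and immune cell markers rose. Of 9 adipocyte markers 2 rose, Cidea and Cidec, which fatty liver cells also express, and 1 fell. Among pericentral hepatocyte genes 4 of 13 fell and among periportal ones 3 of 13 fell and 2 rose. Without anti-GCGR replicate 5, where 24.2% of all genes passed, 8 periportal genes fell and 2 rose, 5 pericentral genes fell and 1 rose, and 7 stellate, 6 endothelial, 4 Kupffer and 2 proliferating cell markers rose, with 3 adipocyte markers up and 2 down. In that setting 1 marker each of cholangiocytes, blood cells and pancreas rose. Of the pancreas markers, Cela2a, Prss2, Gcg and Pnlip were below the filter on dim probes. The part of these differences in the values of the 9 enzymes was not tested.

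The genes whose pattern over the 11 arrays lay nearest to that of a changed enzyme were found by the root mean square difference of log2 ratios, each gene centred on its own mean. The pick used both groups, so a change in the same direction as the enzyme was largely built into it. The fold changes, adjusted p-values and overlaps of these genes below are description and no separate result. For Cth they were the complement gene C9, at a distance of 0.23, and Nnmt, at 0.23, where Cth itself had a spread of 0.87 about its mean. The log2 fold change of C9 was -1.08 (SE 0.34, adjusted p = 0.0469 by limma). For Ahcy, with a spread of 0.31, they were Vax2 and Hpca, at 0.07 and 0.08, which fell by 0.42 and 0.47. For Csad, with a spread of 0.78, they were Adgrv1 and Gal3st1, at 0.29 and 0.32. Gal3st1, a sulfotransferase that makes sulfated glycolipids, rose by 1.16 ± 0.22 (SE, adjusted p = 0.00844 by limma), its groups not overlapping, and Adgrv1 was at 0.78 ± 0.27 (SE, limma adjusted p = 0.0685). With the scanner software's ratio Gal3st1 did not pass, at 0.41 (adjusted p = 0.385 by limma), nor did C9, at -1.50 (0.0742). Leaving out single arrays ended the C9 call 9 times in 11, and Adgrv1 passed once, without anti-GCGR replicate 5 (limma adjusted p = 0.00258).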

How the data were processed

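Scans were read by Agilent Feature Extraction, whose version the submitters' processing notes give as 11 and the headers as 11.5.1.1. The deposited files hold, per the file headers, median pixel intensity of spot and local background for Cy5 (liver) and Cy3 (reference), and a log10 ratio of signals that the software had background-subtracted and dye-normalized. The authors also deposited log2 ratios by probe in one table, with no account of how it was made in the sources at hand. Its values were Cy5 over Cy3, not centred by gene, correlated with the values computed here at 0.999964 or above on each array, and had medians of -0.00096, 0.0075, 0.0015, -0.0028, 0.0054 and 0.0013 on antibody replicates 1 to 6, against -0.0026, 0.0022, 0.00079, 0.0081 and 0.00021 on the PBS replicates in order of number. It served as an alternative.

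Here limma 3.58.1 (R 4.3.3) removed background by normexp (offset 50), and loess within each array normalized the ratios, control spots having weight 0. Uneven spots were left out and spots of a probe averaged. Probes were named through the RefSeq accession in the array files and a table of assembly GRCm38.p6: 26581 of 39429 probes matched, of 20144 genes, and 12848 matched none. Probes well above background in the Cy5 channel of 5 or more of the 11 arrays were kept, and the brightest kept probe stood for its gene, which left 15953 genes. Groups came from the sample titles. They were compared with lmFit and eBayes, two-sided, at a Benjamini-Hochberg adjusted p under 0.05, and errors of fold changes are moderated standard errors. The fit was tested on simulated data.

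Text names the 9 genes, the 2 largest rises and falls past the threshold of each pathway list, and the 2 genes nearest in pattern to each changed member. One gene that this rule names is not reported here. Mtr and Suox, and 8 ratios between members, were added after their values were seen. The members and lists were chosen with earlier results of these data known. Slide and replicate number were tried as blocks. Each slide was scanned once, so slide and scan are one factor. The number of arrays limits the precision. No PBS replicate 2 was analysed here.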

Additional observations from a re-analysis of the deposited data

Results flagged for a closer look

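Across 70 groups of values checked (35 genes in 2 groups), 5 held an array far from the others of its group by the gap to its neighbour over the range of the group, and chance gives about 1 in 20. On anti-GCGR replicate 5, Cdo1 was at 5.14 with its neighbour at 5.31 (gap 0.753 of the range), Chdh at 3.84 with its neighbour at 4.18 (0.633), Oaz1 at 1.22 with its neighbour at 0.93 (0.634) and Got1 at 3.21 with its neighbour at 0.89 (0.71). On PBS replicate 1, Ggct was at 0.49 with its neighbour at 0.76 (0.783).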

How the results depend on the processing

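Ahcy, Cth and Csad kept their direction in all 26 alternatives. The numbers of changed genes, members and member probes were 2336, 3 and 5. Leaving out 1 array at a time gave 1240 to 3868 genes (1240 without PBS replicate 1 and 3868 without anti-GCGR replicate 5), 1 to 4 members and 1 to 6 member probes. Without both arrays numbered 5, an alternative chosen after seeing the data, 3669 genes passed. With the Cy5 channel alone, where 14.5% of all genes passed, 6 members (1 up, 5 down) and 8 member probes passed. Among them Mat1a, Gnmt and Cbs also differed in Cy3, by -0.42, -0.42 and -0.70. With the replicate block over the 5 shared numbers, 1050 genes, 0 members and 0 member probes passed (Ahcy, Cth and Csad at adjusted p = 0.0556, 0.0668 and 0.0736 by limma); that fit uses 10 arrays and fewer degrees of freedom. Same-numbered arrays did not deviate together (correlations -0.13 to 0.14, and 1 of 5 antibody arrays was nearest to its own number), so the numbers are not taken as pairs.

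The sign changed for Cbs (0.024) and Folr2 (-0.12) with the scanner software's ratio, for Bhmt2 (-0.027) and Cdo1 (-0.076) with median centring, for Bhmt2 (-0.10) and Cdo1 (-0.17) with the Cy5 channel alone, for Cdo1 without PBS replicate 3 (-0.034 to 0.051 over single arrays left out) and for Bhmt without PBS replicate 6 (-0.088 to 0.0024), for Cbs over Ahcy (-0.24) and Bhmt2 over Bhmt (-0.071) with the Cy5 channel alone and for Gnmt over Mat1a (-0.29) with the scanner software's ratio, and the cause was not tested. Of all calls, 61.3% were rises here, 21.3% with median centring (582 up, 2146 down), 45.2% (978 rises, 1185 falls) by the scanner's own ratio and 50.5% when Cy5 stood alone, with 1172 rises and 1149 falls.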
